A study of Mus musculus with 2 samples.

Results

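Solute carriers are the large set of membrane proteins that move nutrients, ions, metals and metabolites across the plasma membrane and the membranes of organelles, by exchange or by coupling to ion gradients, without splitting ATP themselves. In the intestine, apical carriers take up amino acids, vitamins, bile acids and metals from the lumen, basolateral carriers pass them on to the blood, and the full absorptive set is known from differentiated enterocytes rather than from crypt cells. Mitochondrial carriers and the carriers of nucleotide sugars in the Golgi serve metabolism and glycosylation in every cell. The genes described here are the 168 whose symbol is Slc followed by a digit, that have a row in both count tables and that reached 100 UMIs (unique molecular identifiers, the counted mRNA molecules) over all barcodes of both tables. They come from 297 such genes among the 18309 listed in either table, 24 of the 297 being in 1 table only with at most 5 UMIs. Rows under the limit numbered 125, and the 4 genes Slc2a1, Slc2a2, Slc5a1 and Slc16a3 were left out by name. The members nearest the limit were Slc22a5 with 102 UMIs and Slc26a11 with 106, and the rows just below it were Slc9a4 with 99 and Slc5a6 with 93. Total abundance chose the members, so that abundance is given only as a description.

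The data are Drop-seq single-cell libraries of mouse intestinal crypts grown together with intestinal fibroblasts in organoid growth medium, both from small intestine of C57BL6 mice aged 10 weeks. In the Ptger4-ON condition the co-cultures received the solvent DMSO and grew as spheroids. In the Ptger4-OFF condition they received 10 µM ONO-AE3-208, an inhibitor of the prostaglandin E2 receptor Ptger4 (EP4), every second day, and grew as budding organoids. Each condition is 1 library from 1 pool of 6 co-cultures, so there is no replicate, no test and no p-value, and every interval given is a 95% interval of counting error only. The inhibitor reached both epithelium and fibroblasts, and the pooled cultures cannot be told apart.

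The libraries held 7408303 UMIs in 908 barcodes (ON) and 9490205 in 1599 (OFF), of which 66308 and 94481 belonged to the 168 carriers, 0.895% and 0.996%. After filters, 588 and 1200 epithelial-like and 288 and 360 fibroblast-like cells remained. All 10 epithelial markers were detected in epithelial-like cells, summing to 15935 and 13246 CPM (UMIs of a gene scaled to a common total for the cell class), and the 10 fibroblast markers, all detected, came there to 96.9 and 109.4 CPM against 34472 and 34146 among fibroblast-like cells. Leukocyte markers reached at most 16.5 CPM and the 1 measured endothelial marker at most 1.71 CPM in either class. Barcodes over 50000 UMIs, all epithelial-like, carried 22.9% of the epithelial UMIs in ON (16 barcodes) and 4.97% in OFF (6 barcodes). The libraries shared 1 barcode sequence before filters and 0 after.

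Carriers were read across cell clusters that were built without any Slc gene, so no cluster was defined by a gene described here. A fetal-like cluster (led by genes such as Ctse and Msln) held 29.6% of epithelial-like cells in ON and 5.75% in OFF. A cycling cluster held 27.9% and 30.5%, and a cluster with Olfm4 and Aqp4 among its leading genes 20.1% and 33.8%. The leading genes of the latter also included Ung, Dtl, Cdt1, Ccne2 and Cdc6, so the name used below covers only part of them. A cluster with Nrn1 and Ndrg1 among its leading genes held 8.16% and 17.4%. A Paneth and goblet-like cluster held 11.9% and 5.33%. The enterocyte-like cluster had only 13 cells in ON and 69 in OFF, too few in ON for a ratio inside it, and its values below are mostly those of OFF cells or of both libraries summed. An enteroendocrine-like cluster of 1 and 17 cells was not used. Among fibroblast-like cells, the Mgp and Spp1 cluster had 211 cells in ON and 304 in OFF, the Il11 and Pamr1 cluster 51 and 52, and an unnamed cluster of shallow cells 26 and 4.

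By substrate, 31 members are mitochondrial carriers, 27 carry amino acids or peptides, 25 metals or heme, 21 inorganic ions, 19 nucleosides or nucleotide sugars, 12 lipids, bile acids or choline, 8 organic ions or amines, 6 vitamins, 6 sugars or polyols and 4 monocarboxylates or other organic acids. A further 6 are orphan carriers, and 3 are not transporters but bear a carrier's name (Slc9a3r1, Slc7a6os and Slc4a1ap). Carriers of zinc and manganese were among those with the widest differences between the conditions, and promoters are shown for 3 of these that were higher in OFF and hold a match to the core of the metal response element, the short DNA word bound by the zinc sensor MTF1 (TGCACNC or TGCGCNC, both strands). The fourth promoter is that of the cystine importer Slc7a11, with the word of the amino acid response element bound by ATF4 (TGATGNAAN, both strands). Each is a RefSeq window of 300 bases, from 250 before to 50 after an annotated start in GRCm38.p6, printed 5′ to 3′ on the strand of the gene, and the capitals mark the matches.
Slc39a5, chr10:128401175-128401474, minus strand, 1 match: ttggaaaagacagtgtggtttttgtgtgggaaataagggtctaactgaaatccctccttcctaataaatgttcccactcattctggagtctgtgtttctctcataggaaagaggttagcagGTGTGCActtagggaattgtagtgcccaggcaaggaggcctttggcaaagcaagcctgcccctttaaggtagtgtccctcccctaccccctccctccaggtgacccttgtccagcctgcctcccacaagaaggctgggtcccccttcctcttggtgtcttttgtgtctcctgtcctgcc
Slc30a10, chr1:185454598-185454897, plus strand, 3 matches of which the first 2 overlap: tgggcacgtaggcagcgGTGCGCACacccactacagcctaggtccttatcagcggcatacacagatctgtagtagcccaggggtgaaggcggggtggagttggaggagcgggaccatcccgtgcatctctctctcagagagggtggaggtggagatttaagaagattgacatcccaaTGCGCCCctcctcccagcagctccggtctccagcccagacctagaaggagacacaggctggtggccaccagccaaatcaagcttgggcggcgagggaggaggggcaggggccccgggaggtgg
Slc30a1, chr1:191906531-191906830, plus strand, 2 matches: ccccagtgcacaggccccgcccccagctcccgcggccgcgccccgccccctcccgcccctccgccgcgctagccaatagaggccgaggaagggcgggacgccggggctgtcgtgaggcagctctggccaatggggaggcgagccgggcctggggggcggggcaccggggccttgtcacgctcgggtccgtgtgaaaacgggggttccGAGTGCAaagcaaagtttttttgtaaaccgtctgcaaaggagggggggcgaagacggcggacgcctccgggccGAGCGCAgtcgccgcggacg
Slc7a11, chr3:50443564-50443863, minus strand, 2 matches: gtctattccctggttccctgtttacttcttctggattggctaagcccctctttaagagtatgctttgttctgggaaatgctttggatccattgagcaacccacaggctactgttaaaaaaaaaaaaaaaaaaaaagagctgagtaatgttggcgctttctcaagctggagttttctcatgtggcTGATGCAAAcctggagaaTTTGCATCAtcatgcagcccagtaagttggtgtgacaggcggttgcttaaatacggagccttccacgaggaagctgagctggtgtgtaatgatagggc
Slc39a5 has a second annotated start, whose window (chr10:128400417-128400716) held 0 matches. RefSeq windows were found for 125 of the 168 members, 173 windows in all. The metal word was in 66 of these windows (38.2%) and in 25.7% of all 32851 mouse windows. All windows, here and for the ATF4 word, were not held to the abundance rule of the carriers. These shares therefore do not compare like with like and were not tested. The ATF4 word was in 5 of the 173 (2.89%, in Slc7a11, Slc50a1, Slc1a4 and Slc7a7) and in 3.95% of all windows. The metal word does not sort the metal carriers by direction. Slc30a4, a zinc exporter into vesicles, held 3 matches and was lower in OFF, at 49.3 CPM in ON and 36.7 in OFF. The metal word and the printed genes were chosen after the values were seen, and a match is a stretch of letters, not a shown binding site.

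In epithelial-like cells, 7 carriers were at least 2-fold higher and 5 at least 2-fold lower in OFF than in ON. The 7 were the zinc importer Slc39a5, the manganese exporter Slc30a10, the iron exporter Slc40a1 (ferroportin), the proton-coupled folate carrier Slc46a1, the chloride-bicarbonate exchanger Slc26a3, the cystine carrier subunit Slc3a1 and the cationic amino acid carrier Slc7a2. The 5 were Slc25a48, a mitochondrial carrier, Slc12a4, a potassium-chloride cotransporter, Slc4a11, of the bicarbonate carrier family, Slc44a2, a choline carrier-like protein, and Slc35e4, of unknown substrate. Of the 167 members with at least 20 epithelial UMIs, the 7 are 4.19%, against 2.85% of all 11613 genes so measured, and the 5 are 2.99%, against 4.25%. Among genes held to the same abundance rule as the carriers, 1.68% were higher and 2.9% lower. The median log2 OFF/ON over the carriers was 0.02 and over all measured genes -0.04. The middle of the group thus lay near equality, with 88 of 167 on the higher side.

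**Figure D1:**
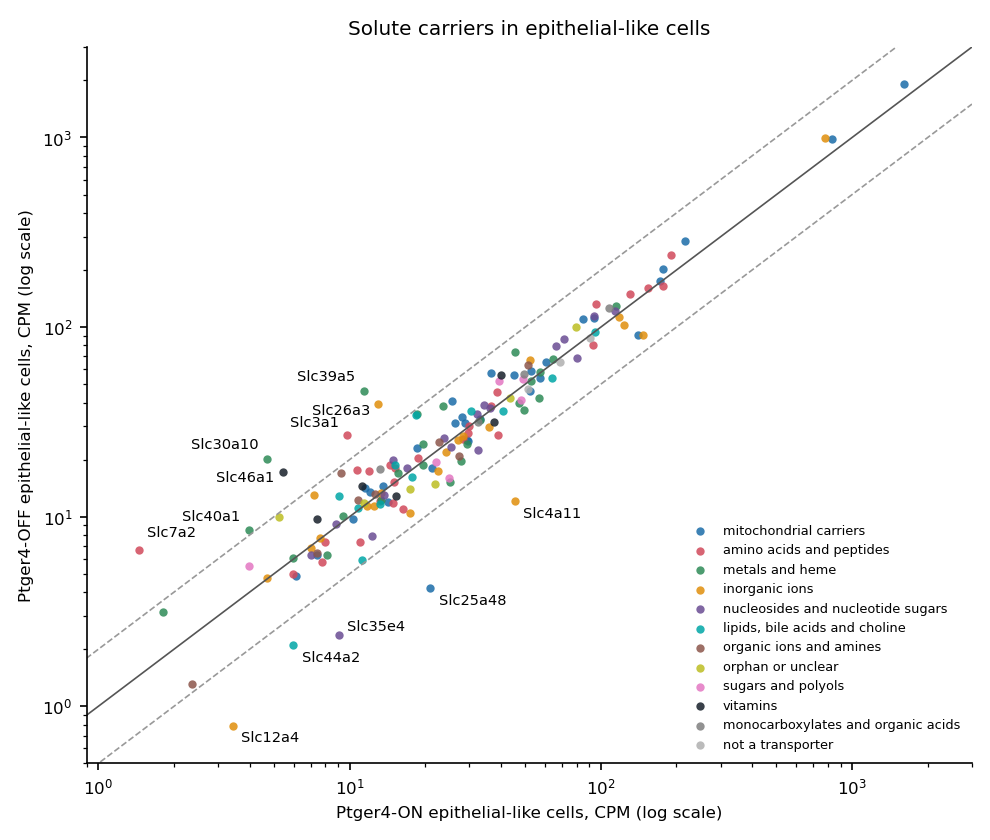
Each point is 1 carrier gene, with its level in Ptger4-ON epithelial-like cells on the horizontal axis and in Ptger4-OFF on the vertical axis, both in CPM on log axes, 1 library each. The solid line marks equal levels and the dashed lines 2-fold differences; colours give the substrate class, the 7 genes named above the upper line are higher in OFF and the 5 named below the lower line are lower.

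Of the 25 carriers of metals and heme, 3 were past 2-fold, all higher in OFF (12%, against 2.85% of all genes). The class median log2 was 0.02, with 14 members higher and 11 lower. Slc39a5 imports zinc and sits on the basolateral side of mouse enterocytes. Its epithelial level was 11.4 CPM (interval 8.75 to 14.6) in ON and 46.03 CPM (41.3 to 51.1) in OFF, 4.04-fold higher (3.08 to 5.38). After each cell was thinned to 1000 UMIs, 5 of 530 ON cells (0.943%, 0.307 to 2.19) and 66 of 1153 OFF cells (5.72%, 4.45 to 7.23) had a Slc39a5 UMI, against 0 of 259 and 1 of 348 fibroblast-like cells. Without thinning the epithelial shares were 7.65% and 21.1%. The median depth of epithelial-like cells was 4621 UMIs in ON and 4159.5 in OFF, and that of fibroblast-like cells 4612.5 and 4473.5.

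The difference in Slc39a5 was present inside separate clusters. Cycling cells had 16.8 CPM in ON and 49.5 in OFF, 2.94-fold (2.03 to 4.37). Cells of the Olfm4 and Aqp4 cluster had 14.3 and 40.04 CPM, 2.79-fold (1.33 to 6.76), and Paneth and goblet-like cells 9.54 and 38 CPM, 3.98-fold (1.5 to 12.3). In the Nrn1 and Ndrg1 cluster the ON value rested on 2 UMIs, and the ratio of 7.02 has an interval from 1.86 to 59.3. Fetal-like cells held almost none, with 1 UMI in ON and 3 in OFF, so the gene was near 0 there in both conditions. Leaving out the barcodes over 50000 UMIs left 11.2 and 47.1 CPM.

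Slc30a10 exports manganese, and loss of it causes manganese overload in humans. It stood at 4.70 CPM in ON (3.07 to 6.88) and 20.1 CPM in OFF (17.1 to 23.6), 4.28-fold higher (2.81 to 6.77), with 0 UMIs in fibroblast-like cells of either library. A single ON barcode held 30.8% of its ON epithelial UMIs. It was highest in the enterocyte-like cluster, where it reached 122 CPM in OFF, and next in the Nrn1 and Ndrg1 cluster, with 13.6 CPM in ON and 38.9 in OFF. Inside cycling cells the levels were 2.89 and 7.56 CPM, 2.62-fold (1.04 to 7.84).

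The zinc exporter Slc30a1 is the carrier best known as an MTF1 target, and its epithelial level was 18.6 CPM in ON and 34.7 in OFF, 1.87-fold (1.48 to 2.37). Inside clusters its intervals were wide: 21.2 and 29.9 CPM in cycling cells, 1.42-fold (0.980 to 2.07), and 10.8 and 26 CPM in the Olfm4 and Aqp4 cluster, 2.42-fold (1.02 to 6.99). Fetal-like cells had 13.9 and 14.3 CPM, near equal. Slc30a1 was chosen for description after its values were seen.

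Iron carriers and the main copper importer are given next. Ferroportin (Slc40a1), the only known iron exporter of animal cells, had 3.98 CPM in ON (2.49 to 6.02) and 8.55 in OFF (6.6 to 10.9), 2.15-fold (1.31 to 3.66), and 36 of its 65 OFF UMIs were in the enterocyte-like cluster. Its log2 OFF/ON of 1.08 was past 2-fold under 13 of 20 alternatives and was 0.36 without that cluster. The iron importer Slc11a2 (DMT1) had 23.5 and 38.1 CPM, 1.62-fold (1.32 to 2.01), and Slc39a14, an importer of zinc, iron and manganese, 45.4 and 74.3 CPM, 1.64-fold (1.41 to 1.91). Without the enterocyte-like cluster the log2 OFF/ON of Slc39a14 was 0.33 in place of 0.71. The copper importer Slc31a1, with the most epithelial UMIs of the class, was close to equal at 115 and 129 CPM, 1.12-fold (1.01 to 1.24).

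Several zinc importers pointed the other way. Slc39a6 was at 25.1 CPM in ON and 15.3 in OFF, a ratio of 0.607 (0.471 to 0.783), and Slc39a10 at 27.8 and 19.7 CPM, 0.709 (0.562 to 0.893). The apical zinc importer Slc39a4 had 56.6 and 42.1 CPM, 0.744 (0.635 to 0.872). So the ON to OFF difference had opposite signs for Slc39a5, the basolateral zinc importer, and Slc39a4, the apical one, with neither interval reaching 1. In OFF enterocyte-like cells Slc39a4 stood at 89.8 CPM and Slc39a5 at 99.2 CPM.

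**Figure D2:**
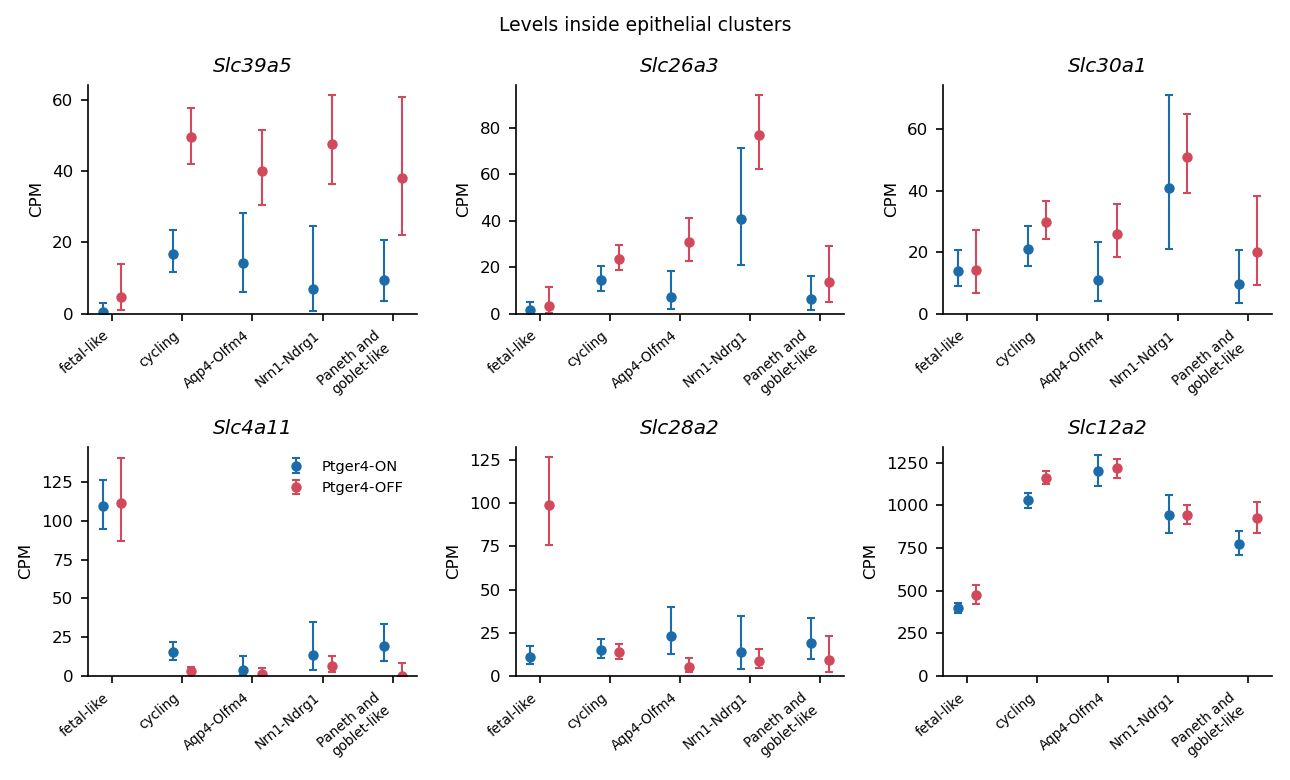
Levels in CPM (vertical axes) of 6 carriers (Slc39a5, Slc26a3, Slc30a1, Slc4a11, Slc28a2 and Slc12a2) inside 5 epithelial clusters, Ptger4-ON beside Ptger4-OFF, 1 library each, with exact Poisson 95% bars of counting error. Slc39a5 is higher in OFF in 4 clusters and near 0 in fetal-like cells, Slc4a11 is level between conditions in fetal-like cells, and Slc28a2 reaches 98.7 CPM in OFF fetal-like cells against 11.1 in ON.

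The metal-binding proteins around these carriers were read from a list of 10, of which 9 were measured: 6 were higher and 3 lower in OFF epithelium, with a median log2 of 0.63 beside -0.04 over all genes, and 2 of the 9 were past 2-fold higher, beside 2.85% of all genes. One of these, the copper-binding ferroxidase Cp, had only 5 and 15 UMIs, 2.18-fold (0.754 to 7.68). Metallothionein 2 (Mt2), the other, which binds zinc and copper, was at 862 CPM in ON and 1871 in OFF, and Mt1 at 1897 and 3551. The ferritin heavy chain Fth1, the iron store, was at 2322 and 3603 CPM, the transferrin receptor Tfrc at 404 and 343, and the MTF1 gene itself (Mtf1) at 30.9 and 29.7. In fibroblast-like cells 8 of the list were measured, 3 higher and 5 lower, with a median log2 of -0.22.

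Amino acid carriers had a median log2 of 0.02 in epithelium, 15 higher and 12 lower. Past 2-fold higher were 2 of 27 (7.41%, against 2.85% of all genes). Slc3a1 and Slc7a9 form the apical carrier for cystine and dibasic amino acids, Slc3a1 as the heavy subunit and Slc7a9 as the transporting one. Slc3a1 was at 9.76 CPM in ON (7.33 to 12.7) and 26.8 in OFF (23.3 to 30.8), 2.75-fold (2.03 to 3.78), and Slc7a9 at 10.7 and 17.6 CPM, 1.65-fold (1.21 to 2.29). Without the fetal-like cluster the log2 OFF/ON of Slc3a1 was 0.94 in place of 1.45. A single ON barcode held 29.6% of the ON UMIs of Slc3a1 and 37.3% of those of Slc7a9. Slc3a1 shares 601 exon bases with Prepl on the opposite strand, and whether counting used the strand is not given in the sources used here.

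Slc7a2 imports arginine, lysine and ornithine, and it was mainly a fibroblast gene in these co-cultures. Fibroblast-like cells had 109.9 CPM in ON and 113 in OFF. Epithelial-like cells had 1.45 CPM (8 UMIs, 0.624 to 2.85) and 6.71 CPM (51 UMIs, 4.99 to 8.82), 4.64-fold higher in OFF (2.19 to 11.3). Epithelial Slc7a2 was 1.32% of the fibroblast level in ON and 5.93% in OFF, while the 10 fibroblast markers, all detected, summed in epithelial-like cells to 0.281% and 0.321% of their fibroblast level. With called doublets kept, the log2 OFF/ON of Slc7a2 went from 2.14 to 1.39, and without mixed barcodes it was 2.14. The part of free fibroblast RNA in this difference was not tested. Of the 51 OFF UMIs, 24 lay in the Olfm4 and Aqp4 cluster (16 CPM, against 3.59 in ON from 2 UMIs) and 20 in cycling cells.

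The carriers of glutamine and of neutral amino acids differed less. Slc1a5, a glutamine importer, had 190.5 CPM in ON and 239 in OFF, 1.25-fold (1.16 to 1.35), and in fibroblast-like cells 122 and 181 CPM, 1.48-fold (1.24 to 1.77). Slc3a2, the heavy chain shared by several exchangers, had 130.3 and 150.1 CPM, 1.15-fold (1.05 to 1.27), and in fibroblast-like cells 253 and 330.0, 1.31-fold (1.15 to 1.48). The cystine-glutamate exchanger Slc7a11, chosen after its values were seen, was lower in OFF at 38.9 and 26.8 CPM, a ratio of 0.691 (0.567 to 0.840). Inside fetal-like cells, where it was highest, it stood at 71.8 and 71.7 CPM, and that cluster held 29.6% of the ON and 5.75% of the OFF epithelial-like cells.

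Genes of the amino acid response, the program run by the transcription factor ATF4 that includes several amino acid carriers, were read from a list of 20, all measured. In epithelium 17 were higher and 3 lower in OFF, with a median log2 of 0.25, beside 5307 of 11613 higher and a median of -0.04 over all genes. Past 2-fold was 1, the stress gene Nupr1, lower at 460 and 208 CPM (4.25% of all genes were lower). In fibroblast-like cells 15 were higher and 5 lower, with a median of 0.17. The transcription factor gene Atf4 itself was at 370 and 399 CPM in epithelium, Asns, asparagine synthetase, at 214 and 243, and Trib3, an ATF4 target, at 16.1 and 29.3.

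Of the 21 inorganic ion carriers, 6 were higher and 15 lower in OFF, with a median log2 of -0.08. Over all measured genes 5307 of 11613 were higher and the median was -0.04, so the class median lay close to that of all genes. Past 2-fold were 1 higher and 2 lower, against 2.85% and 4.25% of all genes. Slc26a3 exchanges luminal chloride for bicarbonate and is known from the surface epithelium. It was at 13 CPM in ON (10.2 to 16.4) and 39.2 in OFF (34.9 to 43.9), 3.01-fold (2.32 to 3.95). It was also higher in OFF inside the Olfm4 and Aqp4 cluster (7.17 and 30.7 CPM, 4.28-fold, 1.56 to 16.4), the Nrn1 and Ndrg1 cluster (40.7 and 77.0 CPM, 1.89-fold, 1.03 to 3.79) and cycling cells (14.4 and 23.6 CPM, 1.64-fold, 1.06 to 2.59). The ON values rested on 4 UMIs in the Olfm4 and Aqp4 cluster and on 12 in the Nrn1 and Ndrg1 cluster. Of the 12, 1 barcode held 58.3%. Fetal-like cells had 3 UMIs in ON and 2 in OFF.

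Slc4a11, which conducts protons and water in other tissues, was the opposite case. Its epithelial level was 45.4 CPM in ON (39.9 to 51.3) and 12.1 in OFF (9.75 to 14.8), a ratio of 0.267 (0.208 to 0.340). Inside fetal-like cells it was 109.7 CPM in ON and 111 in OFF, a ratio of 1.02 (0.762 to 1.34), so the difference over all epithelial-like cells was not present there. Cycling cells had 15.4 and 3.15 CPM, a ratio of 0.205 (0.0898 to 0.427). With both libraries summed, fetal-like cells held 110.1 CPM and the other epithelial-like cells 7.09, 15.5-fold apart (12 to 20.3).

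Other ion carriers were also lower in OFF. Slc26a2, a sulfate carrier needed for sulfated mucins and matrix, was at 148 and 90.4 CPM, a ratio of 0.612 (0.552 to 0.678), and inside fetal-like cells at 262 and 205 CPM, 0.785 (0.641 to 0.956). Slc12a4 had 19 epithelial UMIs in ON, every one in fetal-like cells, and 6 in OFF, of which 1 was in fetal-like cells, so that its levels were 3.43 and 0.789 CPM, a ratio of 0.230 (0.0751 to 0.599). Its fibroblast levels were 30.2 and 44.6 CPM, so the epithelial counts are few beside them, and without the fetal-like cluster its epithelial log2 OFF/ON turned from -2.04 to 2.56.

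Slc12a2, the basolateral sodium-potassium-chloride cotransporter that feeds chloride secretion in crypts, had the most UMIs of the ion carriers. It was at 778 CPM in ON and 989 in OFF, 1.27-fold (1.22 to 1.32). Inside the Olfm4 and Aqp4 cluster it was 1203 and 1217 CPM and inside the Nrn1 and Ndrg1 cluster 943 and 945, both equal within their intervals, and in cycling cells 1030.0 and 1163 CPM, 1.13-fold (1.07 to 1.19). Fetal-like cells had 399.8 and 476 CPM and OFF enterocyte-like cells 122, so the gene was lowest in the enterocyte-like and fetal-like clusters. The sodium pump that drives it was read from a list of helper subunits, 7 measured, of which 4 were higher and 3 lower in OFF (median log2 0.04). Past 2-fold lower were 2 of the 7 (against 4.25% of all genes), among them Fxyd3, a pump regulator, at 231 and 95.5 CPM.

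Mitochondrial carriers had a median log2 of 0.11, with 19 of 31 higher in OFF. Past 2-fold were 0 higher and 1 lower, against 2.85% and 4.25% of all genes. Summed over the 31 genes their level was 3963 CPM in ON and 4559 in OFF. Slc25a5, the main ADP-ATP exchanger of proliferating cells, was at 1608 and 1921 CPM, 1.19-fold (1.16 to 1.23), and the phosphate carrier Slc25a3 at 829 and 986 CPM, 1.19-fold (1.15 to 1.23). The 2 largest ratios were those of Slc25a20, which brings acylcarnitines in for fatty acid oxidation, at 25.7 and 40.6 CPM (1.58-fold, 1.29 to 1.95), and of Slc25a15, the ornithine carrier, at 36.5 and 56.9 CPM (1.56-fold, 1.32 to 1.85). The 2 smallest were those of Slc25a48, at 21.0 CPM in ON and 4.21 in OFF, a ratio of 0.201 (0.131 to 0.299), and of Slc25a24, the ATP-magnesium carrier, at 141 and 90.9 CPM, a ratio of 0.645 (0.581 to 0.715). Slc25a20, Slc25a15 and Slc25a24 were named after their values were seen. Inside fetal-like cells Slc25a48 was at 52.9 and 28.7 CPM, 0.542 (0.308 to 0.903), whereas Slc25a24 was at 215 and 247, 1.15 (0.947 to 1.39).

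**Figure D3:**
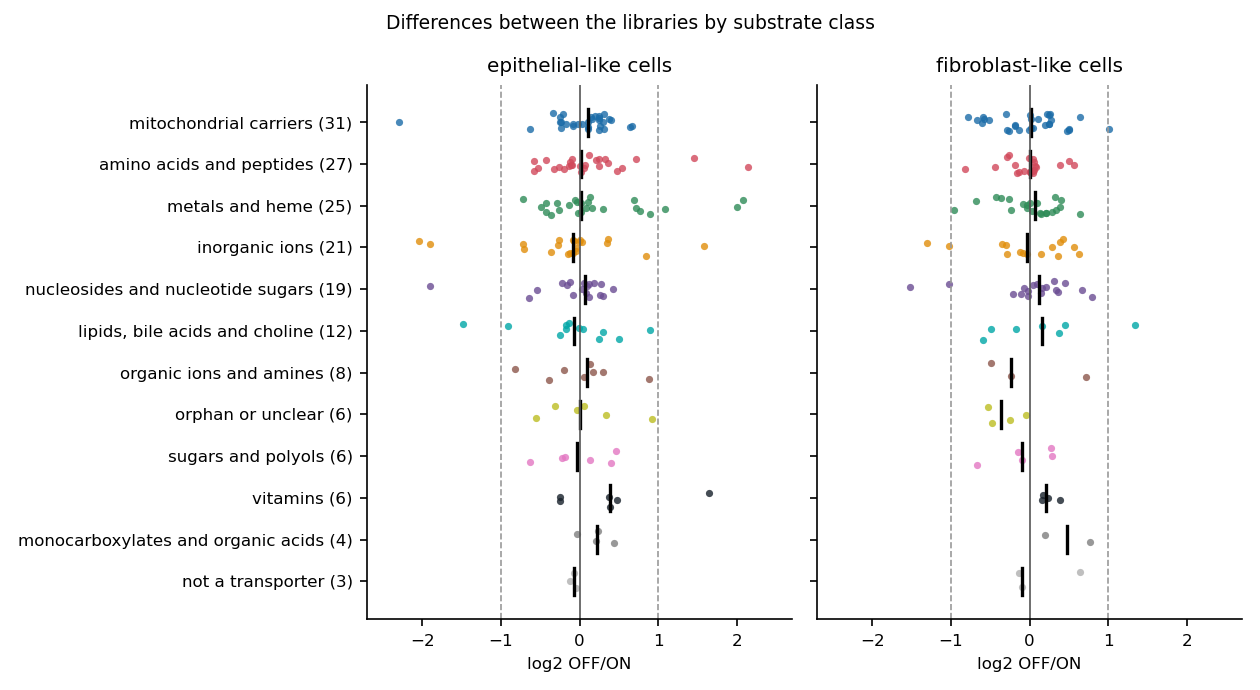
Log2 OFF/ON of each measured carrier (horizontal axis), 1 point a gene, in rows by substrate class with the number of members, for epithelial-like cells at left and fibroblast-like cells at right, 1 library per condition. Black bars are class medians and dashed lines 2-fold; the epithelial medians lie between -0.08 (inorganic ions) and 0.38 (vitamins), and single genes spread from -2.30 to 2.14.

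Vitamin carriers had the largest class median, 0.38, from only 6 genes, 4 higher and 2 lower. The proton-coupled folate carrier Slc46a1 was at 5.42 CPM in ON (3.66 to 7.74) and 17.2 in OFF (14.4 to 20.4), 3.18-fold (2.12 to 4.90), and 83 of its 131 OFF UMIs lay in the enterocyte-like cluster. Without that cluster its log2 OFF/ON went from 1.65 to 0.71, an alternative added after the data were seen. The reduced folate carrier Slc19a1 was at 40.1 and 55.8 CPM, 1.39-fold (1.18 to 1.64), and the thiamine carrier Slc19a2 at 37.6 and 31.7, 0.843 (0.698 to 1.02).

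Carriers of nucleosides and nucleotide sugars had a median log2 of 0.07 and 1 of 18 past 2-fold, a gene lower in OFF (against 4.25% of all genes). That gene was Slc35e4, placed here by its family though its substrate is unknown, at 9.04 CPM in ON and 2.37 in OFF, a ratio of 0.262 (0.144 to 0.457). Of its 50 ON UMIs 39 were in fetal-like cells, and without that cluster its log2 OFF/ON went from -1.91 to -0.57, no longer past 2-fold. The Golgi carriers of CMP-sialic acid (Slc35a1, 93.6 and 115 CPM) and of UDP-N-acetylglucosamine (Slc35a3, 114 and 122 CPM) differed by less than 1.5-fold. Slc28a2, which imports purine nucleosides with sodium, was at 14.8 CPM in ON and 19.99 in OFF, but its clusters went in opposite directions. In fetal-like cells it was at 11.1 CPM in ON and 98.7 in OFF, 8.87-fold (5.28 to 15.5), and in the Olfm4 and Aqp4 cluster at 23.3 and 5.34 CPM, a ratio of 0.229 (0.0823 to 0.596). The 62 OFF UMIs of the fetal-like cluster came from 11 of 69 cells, and 1 barcode held 40.3% of them.

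Lipid, bile acid and choline carriers had a median log2 of -0.07 with 1 of 12 past 2-fold, lower in OFF (against 4.25% of all genes). That was Slc44a2, at 5.96 CPM in ON and 2.10 in OFF (0.353, 0.181 to 0.660). The ileal bile acid importer Slc10a2 was at 11.2 and 5.92 CPM, a ratio of 0.528 (0.352 to 0.788), but 1 ON barcode held 40.3% of its ON epithelial UMIs, and with every cell weighted equally its log2 OFF/ON was 0.04 in place of -0.92. Organic ion and amine carriers had a median of 0.09 from 8 genes and monocarboxylate carriers of 0.22 from 4. Among them Slc16a1, which carries lactate, pyruvate and butyrate, was at 108 and 127 CPM, 1.18-fold (1.06 to 1.30). Sugars and polyols had a median of -0.03 from 6 genes, the orphan carriers 0.01 from 6, and the 3 scaffold or neighbour genes -0.08.

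Of the 168 members, 69 had their highest CPM in the enterocyte-like cluster, 35 in the fetal-like, 21 in the Paneth and goblet-like, 19 in the Olfm4 and Aqp4, 13 in the Nrn1 and Ndrg1 and 11 in the cycling cluster. The same count over all genes was not made, so these numbers are not shown to be particular to carriers. In enterocyte-like cells, both libraries summed, 43 of 167 carriers were at least 2-fold above the other epithelial-like cells (25.7%, against 11.2% of all genes and 9.85% of those with at least 100 UMIs) and 36 at least 2-fold below (21.6%, against 36% and 35.2%). The median log2 over the carriers was 0.09, against -0.51 over all genes. With 82 cells in this cluster, the values rest on few cells.

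Carriers of bile acids had some of the highest ratios in the enterocyte-like cluster. Slc51b, a subunit of the basolateral bile acid exporter, was at 194 CPM there and at 2.09 in the other epithelial-like cells, 92.6-fold (60.5 to 147), and the importer Slc10a2 at 82.5 and 3.94 CPM, 20.9-fold (14.1 to 31.3). In ON, 1 barcode held 66.1% of the Slc51b UMIs of the cluster and 83.3% of the Slc10a2 UMIs. In OFF the cluster alone gave 138 CPM of Slc51b and 52.4 of Slc10a2. Slc10a2 was not limited to it, since 27 of its 62 ON epithelial UMIs were in fetal-like cells. The values depend on the edge of the cluster: with Slc genes kept among the variable genes it held 20 and 109 cells, and its OFF levels were 94.5 CPM of Slc51b, 18.7 of Slc10a2, 109.5 of Slc7a9, 138 of Slc3a1 and 108 of Slc46a1. Slc51b shares 91 exon bases with Rasl12 on the opposite strand.

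The cystine carrier followed, with Slc7a9 at 162 against 6.35 CPM (25.5-fold, 19 to 34.5) and Slc3a1 at 182 against 10.5 CPM (17.4-fold, 13.5 to 22.4). Slc46a1 had 129.5 CPM against 5.63, 23-fold (16.7 to 31.9). The magnesium carrier Slc41a2 had 31.3 CPM against 0.965, 32.4-fold, and its fibroblast levels were 40.98 CPM in ON and 25.6 in OFF. Among genes added after their values were seen, the sodium-phosphate cotransporter Slc34a2 was 20.1-fold higher (14.2 to 28.6), the fatty acid carrier Slc27a4 10.1-fold (7.59 to 13.3) and Slc25a20 7.40-fold (6.00 to 9.09). Iron and manganese exporters were also highest there, Slc40a1 15.8-fold (10.1 to 24.6) and Slc30a10 13.1-fold (9.58 to 17.7).

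Other carriers were lower in the same cells. Slc12a2 was at 102 CPM against 945 (0.108, 0.0848 to 0.137), but its OFF level of 122 CPM there became 289 with Slc genes kept among the variable genes. Also lower were the ADP-ATP exchanger Slc25a4 at 19.9 against 183 CPM (0.109, 0.0594 to 0.183) and Slc1a5 at 59.8 against 227 CPM (0.263, 0.189 to 0.356), the latter with an OFF level of 67.4 CPM that became 95.8 under that clustering. The equilibrative nucleoside carrier Slc29a1 had 0 UMIs in the cluster against 38.9 CPM elsewhere, and the upper end of the interval of that ratio is 0.135. Slc25a5, the sister exchanger of Slc25a4, was not low, at 2042 against 1775 CPM, 1.15-fold (1.09 to 1.21).

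**Figure D4:**
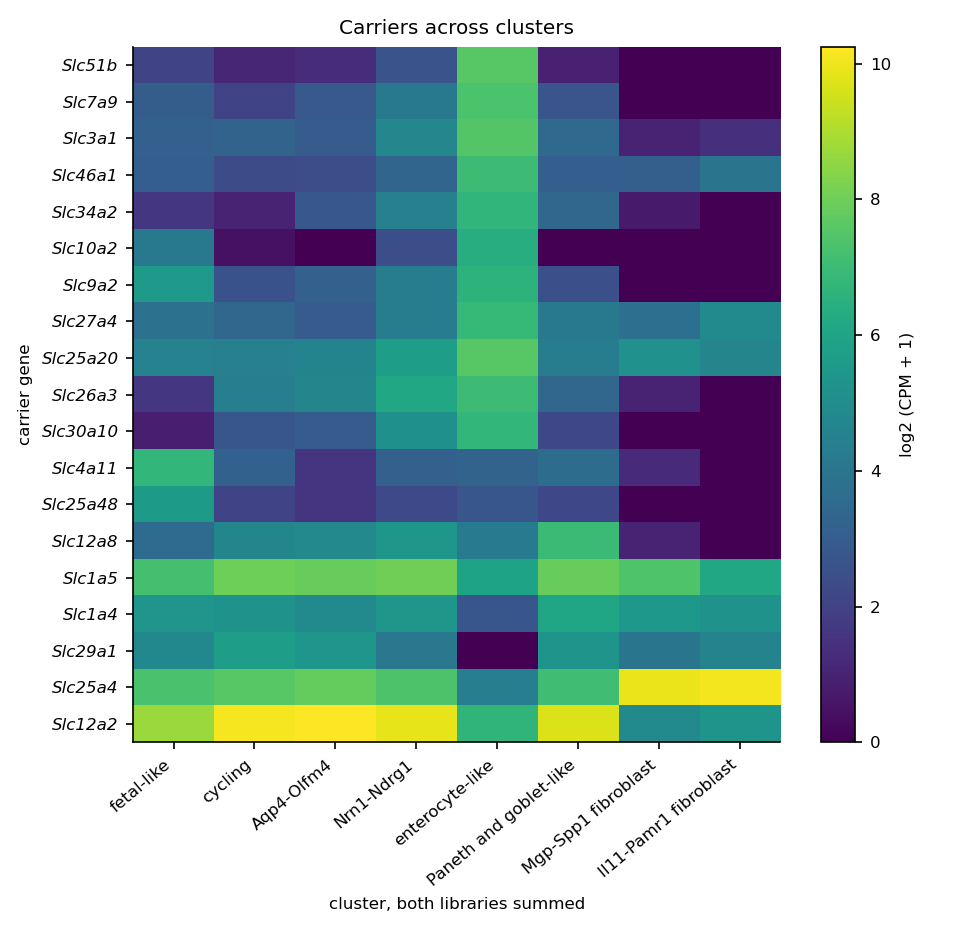
Level of 19 carriers (rows) in 6 epithelial and 2 fibroblast clusters (columns), as log2(CPM + 1) by colour with both libraries summed. Slc51b, Slc7a9, Slc46a1 and Slc3a1 are highest in the enterocyte-like column, Slc4a11 and Slc25a48 in the fetal-like column, Slc12a8 in the Paneth and goblet-like column and Slc25a4 in the fibroblast columns, and Slc12a2 and Slc1a5 are low in enterocyte-like cells.

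Fetal-like cells had 18 carriers at least 2-fold above the other epithelial-like cells (10.8%, background 10.2%, or 8.87% of genes with at least 100 UMIs) and 25 at least 2-fold below (15%, background 9.03%, or 6.88%). Among members with at least 50 UMIs in the cluster, the highest ratios beside Slc4a11 were those of Slc25a48, 14.3-fold (9.69 to 21.5), and Slc9a2, an apical sodium-proton exchanger, at 45.4 against 13.7 CPM, 3.31-fold (2.56 to 4.26). Slc7a11 was 3.14-fold (2.57 to 3.83) and Slc26a2 2.93-fold higher (2.63 to 3.25). Low in these cells were the fatty acid carrier Slc27a2, at 1.24 against 33.7 CPM, and Slc39a5, at 1.65 against 38.2.

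Within the fetal-like cluster 5 of 138 measured carriers were at least 2-fold higher in OFF (3.62%, background 3.25%, or 3.07% at the abundance rule) and 7 lower (5.07%, background 5.13%, or 4.98%). Besides Slc28a2, the organic anion carrier Slc17a4 was at 18.4 CPM in ON and 63.7 in OFF, 3.47-fold (2.13 to 5.67). The creatine importer Slc6a8, named after its values were seen, was at 42.9 and 93.9 CPM, 2.19-fold (1.53 to 3.12). Over all epithelial-like cells these differences were small, Slc17a4 at 51.3 and 62.9 CPM and Slc6a8 at 29.997 and 30.1.

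The cycling cluster had 1 carrier at least 2-fold higher (0.599%, background 3.25%, or 2.75% at the abundance rule) and 23 lower (13.8%, background 10.1%, or 7.94%). That gene was Slc24a5, 10.9 against 4.31 CPM, 2.52-fold (1.62 to 3.97), which shares 714 exon bases with Myef2 on the opposite strand. Slc29a1 was at 50.6 against 27.6 CPM, 1.83-fold (1.53 to 2.20), and the glutamate carrier Slc1a1 at 20.6 against 11.5, 1.78-fold (1.34 to 2.38). Cells of the Olfm4 and Aqp4 cluster had 1 carrier past 2-fold higher, Slc7a2 at 12.6 against 2.98 CPM (0.599%, background 2.17%, or 0.984%), and 20 lower (12%, background 8.96%, or 7.08%). Their next highest were the zinc importer Slc39a10 (1.80-fold, 1.37 to 2.34), Slc27a2 (1.77-fold, 1.38 to 2.25) and the mitochondrial folate and FAD carrier Slc25a32 (1.73-fold, 1.36 to 2.18).

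The Nrn1 and Ndrg1 cluster had 9 carriers at least 2-fold higher (5.39%, background 3.35%, or 1.91% at the abundance rule) and 10 lower (5.99%, background 9.39%, or 7.69%). Slc30a10 was at 34.1 against 10.9 CPM, 3.13-fold (2.23 to 4.35), Slc26a3 at 70.1 against 22.5, 3.11-fold (2.46 to 3.90), and Slc39a14 at 139 against 51.8, 2.68-fold (2.28 to 3.14). These 3 were also above the rest in enterocyte-like cells, at 108, 129.5 and 265 CPM. In the Paneth and goblet-like cluster 2 carriers were at least 2-fold higher (1.2%, background 3.6%, or 1.82%) and 19 lower (11.4%, background 7.5%, or 5.43%). Slc12a8, a member of the cation-chloride cotransporter family, was at 124 against 24.2 CPM, 5.14-fold (4.16 to 6.33), with 122 CPM in ON and 127 in OFF. The UDP-galactose carrier Slc35a2, which serves glycosylation in the Golgi, was at 61.3 against 34.6 CPM, 1.77-fold (1.35 to 2.30), and the neutral amino acid carrier Slc1a4 at 63.2 against 35.3, 1.79-fold (1.36 to 2.31).

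Inside the clusters other than the fetal-like, carriers past 2-fold higher in OFF were counted as well. There were 5 of 156 in the cycling cluster (3.21%, background 1.47%, or 1.11% at the abundance rule), and 2 were lower (1.28%, background 1.89%, or 1.52%). In the Olfm4 and Aqp4 cluster there were 11 of 128 (8.59%, background 3.07%, or 3.03%), and 4 were lower (3.12%, background 2.31%, or 2.27%). In the Nrn1 and Ndrg1 cluster there were 11 of 120 (9.17%, background 5.23%, or 5.21%), and 4 were lower (3.33%, background 4.15% by both rules). In the Paneth and goblet-like cluster there were 5 of 97 (5.15%, background 2.71%, or 2.69%), and 3 were lower (3.09%, background 3.61%, or 3.51%). These counts have no test, and many rest on few UMIs in the smaller ON clusters.

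In fibroblast-like cells few carriers differed between the conditions. Of 134 measured members, 2 were at least 2-fold higher in OFF (1.49%, background 1.45%, or 1.18% at the abundance rule) and 4 lower (2.99%, background 1.75%, or 1.2%), and the median log2 was 0.04 against 0.02 over all genes. All 6 rest on 41 or fewer UMIs. The pair higher were Slc10a3 (11 UMIs in ON, 30 in OFF), which shares exon bases with Ubl4a on its own strand, and the mitochondrial carrier Slc25a16 (13 and 28). The 4 lower included the GDP-fucose carrier Slc35c1 (20 and 7 UMIs), Slc35d1 (18 and 9) and Slc24a5 (18 and 9), and the intervals of the last pair reach past 1. With a limit of 50 UMIs a gene, 0 fibroblast carriers were past 2-fold.

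**Figure D5:**
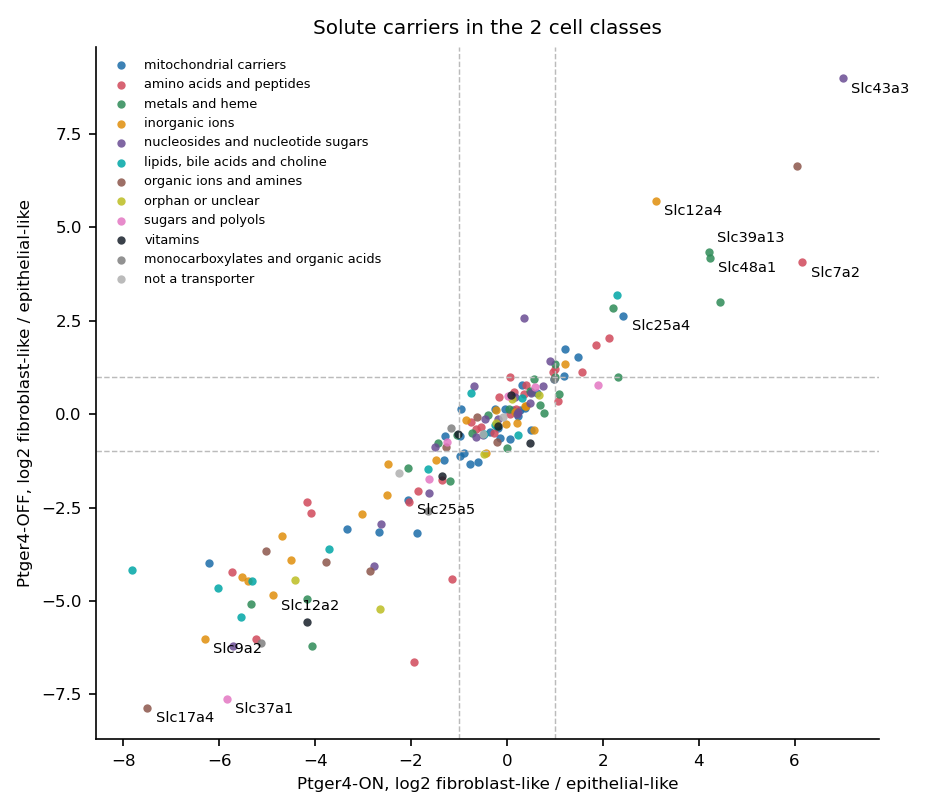
Log2 ratio of the fibroblast-like to the epithelial-like level of each carrier, in Ptger4-ON on the horizontal axis and in Ptger4-OFF on the vertical axis, 1 point a gene, coloured by substrate class, with dashed 2-fold lines. Slc43a3, Slc48a1 and Slc39a13 lie toward the upper right (fibroblast side), Slc17a4, Slc9a2 and Slc12a2 toward the lower left (epithelial side), and 0 genes lie past 2-fold in opposite directions.

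The split between cell types was wide and alike in both libraries. In ON, 23 of 168 carriers were at least 2-fold higher in fibroblast-like cells (13.7%, background 17.4%, or 14.4% at the abundance rule) and 61 lower (36.3%, background 26.3% by both rules). In OFF, 22 were higher (13.1%, background 18.5%, or 15.6%) and 59 lower (35.1%, background 26.6%, or 26%). In both libraries 19 were at least 2-fold higher in fibroblasts, 53 at least 2-fold higher in epithelium, and 0 were past 2-fold in opposite directions. Counts over both libraries were not made for all genes, so these are not shown to be particular to carriers. The class that leaned most to epithelium was that of organic ions and amines, with a median log2 fibroblast over epithelium of -2.06 in ON and -2.27 in OFF. Metals and heme had medians of 0.48 and 0.13, against -0.24 and -0.21 over all genes. Their members past 2-fold were evenly split, 7 on each side in ON and 5 on each side in OFF.

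The fibroblast carriers were led by Slc43a3, which moves purine nucleobases, at 105 CPM in ON and 99.5 in OFF in fibroblast-like cells. Epithelial-like cells had 4 and 1 UMIs of it, 0.723 and 0.132 CPM, and the ratios were 145 (55.6 to 537) and 757 (134 to 30044). The heme carrier Slc48a1 was at 293 and 313 CPM against 15.5 and 17.1, and the zinc carrier Slc39a13, needed for connective tissue, at 112 and 123 against 5.96 and 6.05. Slc25a4 was at 930.0 and 1086 CPM against 172 and 176, 5.39-fold (4.98 to 5.85) and 6.18-fold (5.77 to 6.63), whereas Slc25a5 had 388 and 393 CPM in fibroblasts against 1608 and 1921. The fibroblast and epithelial levels of these ADP-ATP exchangers thus ran in opposite directions.

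Among the epithelial carriers, 8 had 0 UMIs in the fibroblast-like cells of both libraries (Slc10a2, Slc17a4, Slc25a48, Slc28a2, Slc30a10, Slc51b, Slc7a9 and Slc9a2). This count was not made over all genes, so it is not shown to be particular to carriers. Against a floor of 3 counts over the class, Slc17a4 was at least 30.1-fold higher in epithelium in ON and at least 38.5-fold in OFF. Slc44a4, of the choline carrier-like family, was at 64.2 CPM in ON, at least 37.6-fold above fibroblasts, and at 53.8 in OFF, 19.8-fold (8.41 to 61.3) over 5 fibroblast UMIs. For scale, the whole list of 10 epithelial markers, all detected, reached 184 CPM in ON and 264 in OFF among fibroblast-like cells.

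Fibroblast-like cells were not uniform either. Slc7a2 was at 134 CPM in the Mgp and Spp1 cluster and 9.17 in the other fibroblasts, 14.6-fold (6.67 to 40.1), with 140.6 CPM in ON and 129 in OFF inside the cluster. Slc16a1 was at 258 against 99.3 CPM, 2.6-fold (2.02 to 3.40), and Slc1a5 at 171 against 65.7, 2.6-fold (1.90 to 3.64). In the Il11 and Pamr1 cluster the zinc importer Slc39a6 was at 173 CPM against 100.04, 1.73-fold (1.38 to 2.17), and Slc43a3 1.5-fold higher (1.17 to 1.91). Slc48a1 differed little between these clusters, at 302 CPM in the first and 303 in the second. Carriers at least 2-fold above the other fibroblasts numbered 8 of 134 in the Mgp and Spp1 cluster (5.97%, background 7.4%, or 6.49% at the abundance rule) and 8 in the Il11 and Pamr1 cluster (5.97%, background 4.49%, or 3.1%).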

How the data were processed

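The deposited values are UMI counts per gene and cell barcode from Drop-seq libraries, 1 table per condition. The submitters' processing notes name STAR 2.6 and the genome build mm10; neither the annotation nor any use of strand is stated in the material read here. Barcodes passed with 300 or more detected genes and no more than 20% of UMIs from mitochondrial genes. Scrublet called 6 doublets in ON and 4 in OFF, which were removed. Mixed barcodes, 2 in ON and 6 in OFF, were kept. These had at least 5 UMIs of the other class's markers, at a share of at least 25% of that class's median share. Barcodes with smaller amounts of the other class's markers were not counted as mixed. Both libraries were clustered together (scanpy 1.11.5, Leiden at resolution 0.5, 2000 variable genes without any Slc gene, 30 components, 15 neighbours). Clusters with a cell type or cycling name were named from marker lists. Those named by genes were named from short gene sets, such as Olfm4, Aqp4, Cdc6 and Dtl. Counts were summed per library and class into CPM, log2 values used a pseudocount of 0.5, and a gene was measured with at least 20 UMIs over both sides. With 1 library per condition, a 2-fold size rule took the place of a test. Intervals are exact at 95% (Poisson, conditional binomial, Clopper-Pearson). Floors are 3 counts over the class. The ratio intervals were tested on simulated data. Alternatives covered cell filters, clustering, scaling (edgeR 4.0.16 TMM, median of ratios), UMI limits and left-out clusters or barcodes.

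Named genes are members with at least 50 UMIs in a class: the 8 largest and 8 smallest epithelial OFF/ON ratios, 5 and 5 in fibroblasts, 5 and 5 between the classes, the 2 with most UMIs per substrate class, and 3 per epithelial cluster. Members, lists and rules were chosen with earlier results of these data known. Members described outside this rule were chosen after their values were seen, or because they lie at a limit, are not transporters or hold a motif: Slc10a3, Slc11a2, Slc22a5, Slc25a15, Slc25a16, Slc25a20, Slc25a24, Slc25a4, Slc26a11, Slc27a4, Slc30a1, Slc30a4, Slc34a2, Slc35c1, Slc35d1, Slc39a4, Slc4a1ap, Slc6a8, Slc7a11 and Slc7a7. Some members and listed genes are not reported here.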

Additional observations from a re-analysis of the deposited data

Results flagged for a closer look

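The potassium-chloride cotransporter Slc12a4 had a log2 OFF/ON of -2.04 in epithelial-like cells, from 19 and 6 UMIs, and of 0.56 in fibroblast-like cells, from 53 and 82 UMIs. The mitochondrial ATP-magnesium carrier Slc25a24 had -0.63 in epithelial-like cells, from 780 and 691 UMIs, and 0.47 in fibroblast-like cells, from 127 and 185 UMIs. Both were picked out because the cell classes differed in sign, with counting intervals that did not reach equality in either class. Without the fetal-like cluster the epithelial value of Slc12a4 was 2.56, of the same sign as in fibroblast-like cells. Inside fetal-like cells Slc25a24 had an OFF/ON ratio of 1.15 (0.947 to 1.39). With 1 library per condition the difference between the classes was not tested.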

How the results depend on the processing

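No paired analysis was possible because each condition is 1 library. Of the alternatives bearing on counts of carriers and group medians, 111 gave values near those reported and 5 moved. The fibroblast count past 2-fold, 6 as reported, was 0 with at least 50 UMIs a gene, 23 with no UMI limit, 3 with a pseudocount of 1 and 23 at 1.5-fold. The epithelial count, 12 as reported, was 31 at 1.5-fold. At 2-fold, the epithelial counts ranged from 5 to 10 higher and from 3 to 7 lower. Slc12a4 turned from -2.04 to 2.56 in epithelium without the fetal-like cluster, an alternative added after the data were seen, which removes all 19 of its ON UMIs. Without that cluster Slc35e4 went from -1.91 to -0.57. Slc51b went from -0.17 to 0.76 without barcodes over 50000 UMIs. Over all values, 2126 stayed within the counting interval or count limit of the reported value, 73 moved out of it, and 1 value past 2-fold changed sign. Part of the 2126 could not move, because limits on UMIs per gene leave the ratio of a single gene unchanged. Leiden resolution 1 gave the same counts and medians as reported. Medians were compared with the middle of the ends of single-gene intervals, a wide band, so these tallies do not measure how stable the results are. Signs of smaller differences also changed, as for Slc41a2 (0.76 to -1.32 without the enterocyte-like cluster) and, without the fetal-like cluster, Slc28a2 (0.43 to -0.37) and Slc9a2 (-0.36 to 0.14). Depth limits the fibroblast counts and the 13 ON enterocyte-like cells. With Slc genes among the variable genes the enterocyte-like cluster held 20 and 109 cells, and its OFF level of Slc10a2 went from 52.4 to 18.7 CPM and that of Slc12a2 from 122 to 289.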

Other observations

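Carriers known under other symbols were read from a list of 25, of which 19 were measured in epithelial-like cells. Of these, 11 were higher and 8 lower in OFF, beside 5307 of 11613 higher over all genes. The median log2 was 0.08, beside -0.04 over all genes. Past 2-fold was 1 in each direction, beside 2.85% of all genes higher and 4.25% lower. The organic anion carrier Slco2b1 was higher, at 0.723 CPM in ON and 3.68 in OFF, a ratio of 5.09 (1.78 to 19.99) from only 4 and 28 UMIs. The prostaglandin importer Slco2a1 was lower, at 7.05 and 2.76 CPM, a ratio of 0.392 (0.219 to 0.683). With both libraries summed, Slco2a1 was at 17.3 CPM in fetal-like and 14.2 in enterocyte-like cells. It was at 1.86 or less in the cycling, Olfm4 and Aqp4, Nrn1 and Ndrg1, and Paneth and goblet-like clusters. The fetal-like cluster held 29.6% of the ON and 5.75% of the OFF epithelial-like cells. Mpc2, a subunit of the mitochondrial pyruvate carrier, was at 276 and 418 CPM. In fibroblast-like cells 13 of the list were measured, 8 higher and 5 lower, beside 5071 of 9757 genes higher.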
